A study of Homo sapiens with 4 samples.

Results

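The E2F transcription factor genes E2F1 to E2F8 and the retinoblastoma family genes RB1 and RBL1 were followed in U87, a long-established line of human glioma cells, with a hairpin against GLUD1 or a control hairpin. The 10 genes were taken by symbol from the 57820 rows of the deposited table, and the only measured value in the choice was a sum of counts: of 2 rows named RBL1, the one used was chosen by its larger sum over the 4 libraries. The other (ENSG00000269846) held 4 and 1 expected counts in the shGlud1 libraries, against 2 and 3 in the shNT libraries. All 10 members passed the filter on low counts and were among the 14616 genes tested. The family was put forward with results of this comparison known, so its counts and p-values are given as a description of these libraries.

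Activator E2Fs (E2F1, E2F2 and E2F3) bind DNA with a DP partner and switch on genes for DNA synthesis as cells leave G1. E2F4 and E2F5 mostly repress the same genes in resting cells, bound to the pocket proteins p107 (RBL1) and p130 (RBL2), while RB1 holds back the activators until cyclin-dependent kinases phosphorylate it. E2F6 represses through Polycomb proteins without binding pocket proteins, and the atypical E2F7 and E2F8 bind DNA without a DP partner and repress late in S phase.

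The shGlud1 group carried a short hairpin RNA against GLUD1, the gene of mitochondrial glutamate dehydrogenase, and the shNT group a control hairpin. Each group had 2 libraries. All 4 came from cells grown with 10% bovine calf serum and kept in low glucose for 6 h, so the comparison asks how the knockdown altered transcripts in low glucose and not what low glucose did. The labels name 1 cell line and do not give the number of hairpins or clones, and separate cultures are not mentioned. The p-values therefore reflect the spread among 4 libraries that may be technical repeats. Libraries held 17407149 and 18537314 expected counts in shGlud1 and 16546849 and 18118503 in shNT. GLUD1 was lower in shGlud1, with 680 and 1026 expected counts against 1066 and 1171 in shNT (log2 fold change -0.98 ± 0.13 SE, with an edgeR quasi-likelihood adjusted p = 1.26e-12). Of the glioma and mesenchymal markers, VIM (4675 ± 339 CPM in shGlud1 and 2352 ± 103 CPM in shNT) and NES (29.1 ± 0.93 CPM in shGlud1 and 7.62 ± 0.61 CPM in shNT) rose, while CD44 and CHI3L1 did not pass. The glial and stem markers GFAP, OLIG2, S100B, PTPRZ1 and SOX2 had at most 6 counts in any library. The 5 markers of leukocytes summed to 0.200 and 1.08 CPM in shGlud1 and 3.30 and 3.33 CPM in shNT, mostly CD14, with PTPRC at no more than 1 count, and 4 of endothelium to 1.95 and 1.35 CPM in shGlud1 and 1.17 and 0.915 CPM in shNT. The 5 epithelial markers summed to at most 14.2 CPM in shGlud1 and to 53.5 and 57.7 CPM in shNT, nearly all of it KRT14, and the 5 neuronal markers to 18.1 and 16.2 CPM in shGlud1 and 33.7 and 30.7 CPM in shNT, mostly GAD1. GAD1 fell (log2 fold change -1.11), while the neuronal marker RBFOX3 rose (1.80) and SNAP25 (0.81) did not pass. The part of these differences in the results below was not tested.

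Stretches of the promoters of E2F1, E2F2, E2F3 and RBL1 are shown first, because E2F genes are themselves known targets of E2F proteins. These 4 genes were picked because their windows held the motifs searched for, so the presence of a motif in each is not a result. Capitals mark the E2F-type motifs TTTCGCG and TTTGGCG, which were searched on both strands in RefSeq windows (GRCh38.p14) from 250 bases before to 50 bases after each start. The stretches lie at chr20:33686384-33686437 (E2F1, minus strand), chr1:23531254-23531305 (E2F2, minus strand), chr6:20401825-20401861 (E2F3, plus strand) and chr20:37095992-37096038 (RBL1, minus strand), at or shortly before the RefSeq start of each gene.
E2F1: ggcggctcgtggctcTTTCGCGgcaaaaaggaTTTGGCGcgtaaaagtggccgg
E2F2: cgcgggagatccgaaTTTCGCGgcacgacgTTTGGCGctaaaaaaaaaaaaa
E2F3: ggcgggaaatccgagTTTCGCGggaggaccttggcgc
RBL1: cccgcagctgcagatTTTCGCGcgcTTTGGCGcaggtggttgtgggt
E2F1, E2F2 and RBL1 each carried both motifs in the same order and on the coding strand, beginning at -37 and -20, at -57 and -42 and at -26 and -16 from the start. E2F3 carried 1, at -39. At least 1 motif was present in 3.19% of the 35116 windows of all genes and at least 2 in 0.105%, which was 37 windows. Counted by gene, 6.37% of the 9782 tested genes with a window held at least 1 and 0.266% at least 2. The windows of E2F4, E2F6 and E2F7 held neither motif. Other forms of the E2F site were not searched for and are not counted here. That of RB1 lies 172724 bases inside the GENCODE gene and was not used, and E2F5 and E2F8 had no window. A match is a description of letters in the window and not evidence of binding.

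Of the 10 genes, E2F2, E2F3, E2F6, E2F8, RB1 and RBL1 rose, E2F4 fell, and E2F1, E2F5 and E2F7 did not pass the test. Across all tested genes, 31.9% were called higher and 29.1% lower (61% in either direction), so a call alone was common in these libraries. The median log2 fold change of the members was 0.65, against 0.06 for all tested genes. Size separated the members more than the call did. E2F2, E2F8, RBL1 and E2F3 rose by at least 1 on the log2 scale, which 14.9% of tested genes did, and E2F2 and E2F8 by at least 2, which 2.12% did. In 7 members both shGlud1 libraries lay above both shNT libraries in CPM (42.8% of all tested genes) and in E2F4 both lay below (38.2%). CPM here is the count relative to library size, scaled with TMM factors, and fold changes are shGlud1 over shNT. In bulk RNA, fewer cells of a type or cycle phase and less RNA per cell cannot be told apart.

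**Figure D1:**
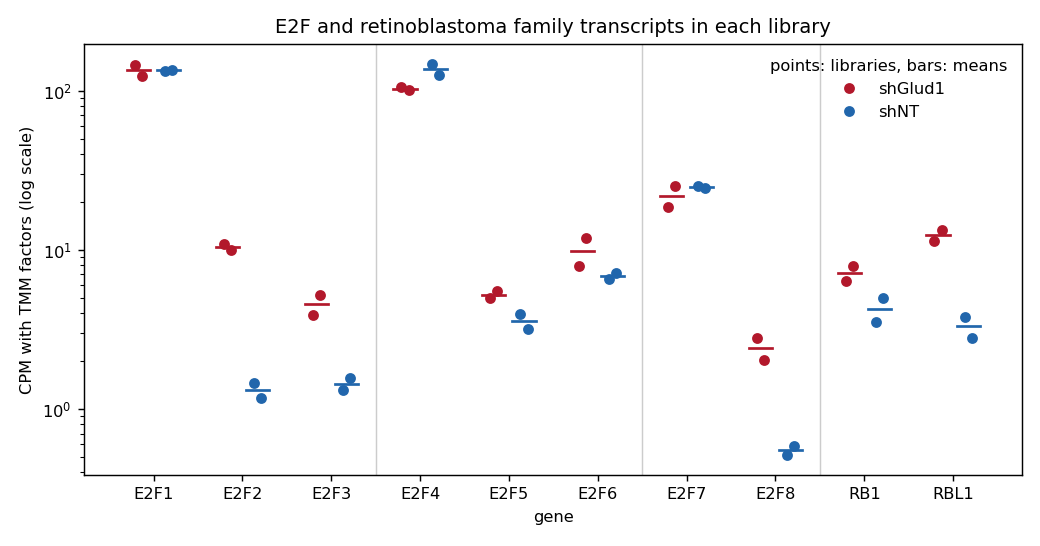
CPM of each family gene (log axis) in the 2 shGlud1 libraries (red) and the 2 shNT libraries (blue), with points for libraries and bars for means. E2F2, E2F3, E2F8 and RBL1 show the widest gaps between groups, while E2F1 and E2F7 overlap.

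Among the activators, the rarer genes rose and the abundant one did not. E2F2 (ENSG00000007968, GRCh38 chromosome 1, 23506430 to 23531220) had 217 and 230 expected counts in the shGlud1 libraries, against 20 and 18 in the shNT libraries. The groups lay far apart, and each pair agreed closely. E2F2 averaged 10.4 ± 0.61 CPM in shGlud1 and 1.32 ± 0.20 CPM in shNT (SD, n = 2 each), a 7.88-fold difference (log2 fold change 2.98 ± 0.28 SE, with an edgeR quasi-likelihood adjusted p = 4.33e-24). Among the genes tested, 99.6% had a lower value than E2F2.

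E2F3 (ENSG00000112242, chromosome 6, 20401906 to 20493715) had 78 and 120 expected counts in shGlud1 and 18 and 24 in shNT. Both shGlud1 libraries were higher, with replicate 2 above replicate 1 by more than the shNT pair differed. Its level was 4.55 ± 0.93 CPM in shGlud1 and 1.44 ± 0.18 CPM in shNT, a log2 fold change of 1.65 ± 0.33 SE with an edgeR quasi-likelihood adjusted p = 1.95e-06.

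E2F1 (ENSG00000101412, chromosome 20, 33675683 to 33686404), the best known driver of S phase entry, had 2888 and 2867 expected counts in shGlud1 and 1815 and 2061 in shNT. After scaling the groups overlapped, at 144 and 124 CPM in shGlud1 and 133 and 135 CPM in shNT, and the log2 fold change of 0.01 ± 0.13 SE had an edgeR quasi-likelihood adjusted p = 0.973. Scaled by total counts alone, E2F1 was called as higher (0.52, adjusted p = 3.29e-05 by edgeR), while the median of all genes moved to 0.57 and 51.9% of them were called higher. Relative to the median of its own scale, E2F1 was at -0.05 with either scaling. The promoter motif pair shown above was thus present both in E2F1, which did not pass, and in E2F2, with the highest fold change of the family.

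Among E2F4, E2F5 and E2F6, 1 fell, 1 did not pass and 1 rose, all by less than 1 on the log2 scale. E2F4 (ENSG00000205250, chromosome 16, 67192169 to 67198918), the main E2F of resting cells, had 2103 and 2314 expected counts in shGlud1, against 2019 and 1920 in shNT. Scaled, it was at 105 and 100 CPM in shGlud1 and 148 and 125 CPM in shNT, so it was the only member below the control in both libraries (log2 fold change -0.41 ± 0.13 SE, with an edgeR quasi-likelihood adjusted p = 0.00342). Leaving out shNT replicate 1 ended the call on E2F4 (-0.29, adjusted p = 0.218 by edgeR, over all alternatives 0.00054 to 0.403), and under total counts the value was 0.11. Set against the all-gene median, E2F4 was at -0.47 on both scales.

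E2F5 (ENSG00000133740, chromosome 8, 85177225 to 85217158), the partner of p130 and p107 besides E2F4, had 99.6 and 127 expected counts in shGlud1 and 53.9 and 48.6 in shNT. The groups did not overlap, at 5.24 ± 0.37 CPM in shGlud1 and 3.56 ± 0.55 CPM in shNT, but the log2 fold change of 0.56 ± 0.27 SE missed the threshold at an edgeR quasi-likelihood adjusted p = 0.0582. E2F5 shares 969 exonic bases with C8orf59 and 133 with an antisense gene on the opposite strand, so without strand its counts are uncertain. With upper-quartile factors, total counts or the median-length trend removed it was called as higher.

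E2F6 (ENSG00000169016, chromosome 2, 11444375 to 11466177) had 158 and 272 expected counts in shGlud1 and 90 and 110 in shNT. Most of the gap came from shGlud1 replicate 2, at 11.8 CPM against 7.90 CPM in replicate 1, with 6.59 and 7.19 CPM in shNT. E2F6 thus had a log2 fold change of 0.52 ± 0.21 SE with an edgeR quasi-likelihood adjusted p = 0.0276. Without shGlud1 replicate 2 it was 0.20 (adjusted p = 0.507), and 6 of 14 alternatives ended the call. Over all 14, the adjusted p ran from 0.000132 to 0.681.

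The 2 atypical repressors, which often act in a common pair, differed from each other. E2F8 (ENSG00000129173, chromosome 11, 19224063 to 19241620) had 56 and 47 expected counts in shGlud1, against 7 and 9 in shNT. Both shGlud1 libraries were several times higher, though the shNT level rests on few reads. An antisense gene covers 7 exonic bases of E2F8. It was at 2.42 ± 0.54 CPM in shGlud1 and 0.550 ± 0.053 CPM in shNT (log2 fold change 2.11 ± 0.48 SE, with an edgeR quasi-likelihood adjusted p = 3.9e-05). E2F7 (ENSG00000165891, chromosome 12, 77021247 to 77065580) had 374 and 580 expected counts in shGlud1 and 343 and 373 in shNT. The groups overlapped, at 18.7 and 25.2 CPM in shGlud1 and 25.1 and 24.4 CPM in shNT (log2 fold change -0.17 ± 0.15 SE, with an edgeR quasi-likelihood adjusted p = 0.331). Leaving out shGlud1 replicate 2 made E2F7 a call in the lower direction (-0.40, adjusted p = 0.0372 by edgeR), as did the fit with the length trend removed (-0.63, adjusted p = 6.5e-05), whereas total counts gave 0.35 without a call. Its adjusted p ran from 6.5e-05 to 0.971 over the alternatives.

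Both pocket protein genes rose. RBL1 (ENSG00000080839, chromosome 20, 36996349 to 37095995), which encodes p107 and is an E2F target in cycling cells, had 228 and 305 expected counts in shGlud1 and 52 and 43 in shNT. The groups were well apart, at 12.3 ± 1.30 CPM in shGlud1 and 3.31 ± 0.71 CPM in shNT (log2 fold change 1.90 ± 0.23 SE, with an edgeR quasi-likelihood adjusted p = 6.6e-15). An antisense gene covers 211 of its exonic bases. RB1 (ENSG00000139687, chromosome 13, 48303726 to 48599436), the tumour suppressor that restrains the activators, had 128 and 182 expected counts in shGlud1 and 48 and 76 in shNT. It was at 6.40 and 7.90 CPM in shGlud1 and 3.52 and 4.97 CPM in shNT, close but not overlapping (log2 fold change 0.75 ± 0.25 SE, with an edgeR quasi-likelihood adjusted p = 0.00477). The call on RB1 ended in 4 of 14 alternatives, with adjusted p up to 0.157: without shNT replicate 1, without shGlud1 replicate 2, with DESeq2 and with the length trend removed (0.42).

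**Figure D2:**
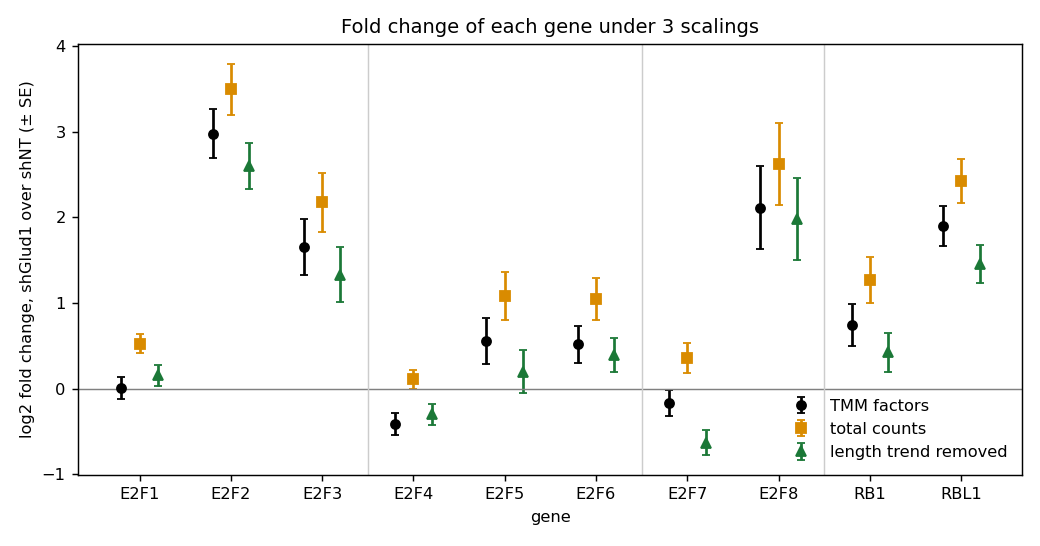
Log2 fold change of each family gene, shGlud1 over shNT, with its SE, under TMM factors (black circles), total counts (orange squares) and with the transcript length trend removed (green triangles). E2F2, E2F3, E2F8 and RBL1 stay above 1 under all 3 scalings, while the signs of E2F4 and E2F7 depend on the scaling.

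Ratios between members within a library do not depend on how libraries were scaled. The mean log2 expected count of E2F1 to E2F3 minus that of the repressors E2F4 to E2F8 was 0.65 and 0.55 in the shGlud1 libraries, against -0.45 and -0.41 in the shNT libraries. This difference stood higher in both shGlud1 libraries, by 1.03 on the log2 scale, with an SD of 0.07 in shGlud1 and 0.03 in shNT. Each gene weighs the same in it whatever its abundance, so it is not a ratio of summed transcripts. For E2F1 minus E2F4, the most abundant activator and repressor, the groups differed by 0.41. Against E2F4 to E2F6 alone the difference was 1.33, and against E2F7 and E2F8 it was 0.58. Against the pocket protein genes RB1 and RBL1 the difference was 0.21, with values of 1.10 and 0.87 in shGlud1 and 0.80 and 0.75 in shNT. The mean log2 fold change was 1.55 over the 3 activators and 1.33 over the 2 pocket protein genes. These balances are given without a test, since the members were chosen with results known.

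The mean over activators hides a spread among them. E2F2 minus E2F1 was -3.73 and -3.64 on the log2 count scale in the shGlud1 libraries, against -6.50 and -6.84 in the shNT libraries. E2F2 thus came closer to E2F1 in both shGlud1 libraries, though it remained far below it. E2F3 relative to E2F1 was at -5.21 and -4.58 in shGlud1 and -6.66 and -6.42 in shNT. E2F1 relative to E2F4, the abundant pair, was at 0.46 and 0.31 in shGlud1 and -0.15 and 0.10 in shNT. E2F1 relative to RB1 was lower in shGlud1, at 4.50 and 3.98 in shGlud1 and 5.24 and 4.76 in shNT. The balance between E2F8 and E2F7 was -2.74 and -3.63 in shGlud1 and -5.61 and -5.37 in shNT.

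**Figure D3:**
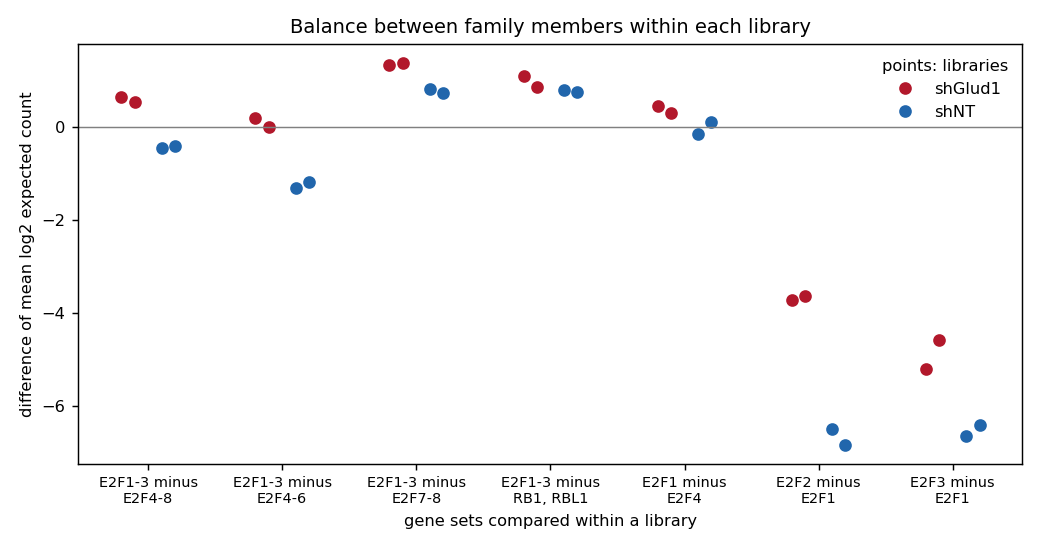
Differences in mean log2 expected count between sets of family genes within each library, for the 2 shGlud1 libraries (red) and the 2 shNT libraries (blue). The groups separate in every balance shown, most for E2F2 against E2F1 and least for the activators against RB1 and RBL1.

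Levels between genes were compared per kilobase of the longest annotated transcript, an approximation since the isoforms in use are unknown. In shGlud1 the order of the mean level was E2F1 (53.7 CPM per kb), E2F4 (39.3), E2F7 (3.82), E2F6 (2.86), RBL1 (2.17), E2F2 (2.01), RB1 (1.49), E2F5 (1.04), E2F3 (0.959) and E2F8 (0.687). In shNT it was E2F1 (53.5 CPM per kb), E2F4 (52.3), E2F7 (4.31), E2F6 (2.00), RB1 (0.885), E2F5 (0.707), RBL1 (0.582), E2F3 (0.304), E2F2 (0.254) and E2F8 (0.156). E2F1 and E2F4 were the dominant transcripts in both groups. Library values overlapped between E2F1 and E2F4 in shNT and were separate in shGlud1. E2F7 overlapped with E2F6, E2F6 with RBL1, RBL1 with E2F2 and E2F5 with E2F3 in shGlud1, and RB1 with E2F5, E2F5 with RBL1 and E2F3 with E2F2 in shNT. E2F2 ranked 6 of 10 in shGlud1 and 9 of 10 in shNT.

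Fold change also followed transcript length in these libraries. Across 14266 tested genes, which are not independent replicates, log2 fold change and the length of the longest transcript had a Spearman correlation of 0.447. With the median transcript length of each gene it was 0.202. E2F1 (2503 nt) and E2F4 (2615 nt) had the shortest longest transcripts of the family, and members that rose ranged from 3450 nt (E2F6) to 5684 nt (RBL1). E2F7, the longest at 5740 nt, did not pass the test. By median transcript length the order differed: RB1 (658 nt), which rose, and E2F4 (736 nt), which fell, were the shortest, and E2F1 (2503 nt) was longer than RBL1 (1994 nt). With the smooth trend on longest transcript removed from each library, the log2 fold changes were 2.60 for E2F2, 1.98 for E2F8, 1.45 for RBL1 and 1.33 for E2F3, all still called. They were the 4 members called higher on that scale, where 27.1% of all tested genes were. On that scale E2F6 (0.39, adjusted p = 0.0796), RB1 (0.42, adjusted p = 0.107) and E2F5 (0.20, adjusted p = 0.52) did not pass edgeR's quasi-likelihood test, and E2F1 was at 0.15. The activator balance against E2F4 to E2F8, taken as a difference of mean fold changes, was 1.03 with the trend removed and 1.02 before. With the median transcript in place of the longest it was 0.73.

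**Figure D4:**
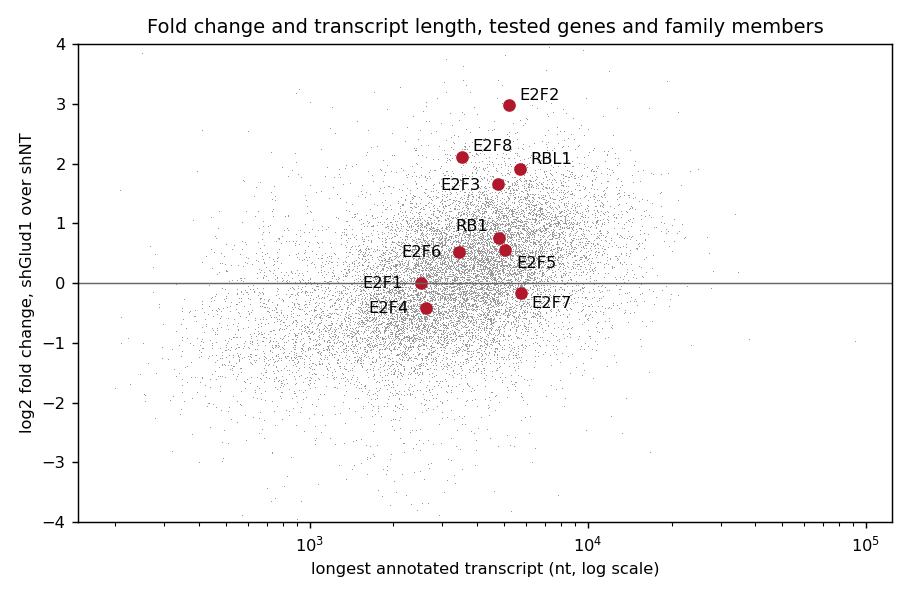
Log2 fold change, shGlud1 over shNT, against the longest annotated transcript (log axis) for tested genes of at least 200 nt (grey dots, cut at 4 on either side) and the family members (red). E2F1 and E2F4 sit at the short end of the family, and E2F2 lies highest at 5191 nt.

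The partners and regulators of the family were described from lists written from general knowledge. Of the DP partners, which E2F1 to E2F6 need to bind DNA, TFDP1 rose (66.6 ± 6.63 CPM in shGlud1 and 45.3 ± 2.28 CPM in shNT, log2 fold change 0.56). TFDP2 had 0.21 and did not pass, and TFDP3 was too low to be tested. Of 9 genes of the DREAM complex, its MuvB core and the factors that replace its E2F4 arm, 7 rose and 1 fell, with a median log2 fold change of 0.91. Over all tested genes 31.9% were called higher and 29.1% lower, with a median of 0.06. With the length trend removed 6 of the list rose and 1 fell, at a median of 0.49. RBL2, which encodes the third pocket protein p130, also rose, at 18.9 ± 2.27 CPM in shGlud1 and 6.71 ± 1.01 CPM in shNT (log2 fold change 1.49 ± 0.19 SE, with an edgeR quasi-likelihood adjusted p = 1.57e-13). Of the MuvB genes, LIN54 (1.66), RBBP4 (1.11) and LIN52 (0.46) rose, LIN37 fell (-0.65) and LIN9 was at -0.58 without passing. The kinase gene DYRK1A, whose product assembles DREAM, rose (0.91), as did the mitotic activator genes FOXM1 (1.03) and MYBL2 (0.40). With RLE factors, the replicate block or the median-length trend removed, 2 genes of this list were called lower, and with total counts 0. The number called lower also changed with shNT replicate 2 or shGlud1 replicate 1 left out.

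Of 8 genes for the cyclins and kinases that phosphorylate RB, 4 rose, 1 fell and 3 did not pass. For comparison, 31.9% of all tested genes were called higher and 29.1% lower. CCND1, the D-type cyclin that starts RB phosphorylation, rose to 282 ± 20.9 CPM in shGlud1, against 111 ± 10.7 CPM in shNT (log2 fold change 1.35). CDK2 (1.55), CDK6 (0.69) and CCND3 (0.60) also rose. CDK4, the most abundant of them, fell to 549 ± 96.7 CPM in shGlud1, against 972 ± 59.7 CPM in shNT (-0.82). The cyclin E genes CCNE1 (0.05) and CCNE2 (-0.54), themselves E2F targets, and CCND2 (1.29, at most 16 counts) did not pass. With RLE factors, the replicate block or the length trend removed, 2 genes of this list were called lower. The number called lower also changed with shGlud1 replicate 2 left out. Of the CDK inhibitors, CDKN2A, CDKN2B and CDKN2C had 0 counts in all 4 libraries, which allows up to 0.150 and 0.130 CPM in the shGlud1 libraries and 0.220 and 0.196 CPM in the shNT libraries. CDKN1B (0.96) and CDKN2D (0.61) rose, CDKN1A was at 0.04 without passing, and CDKN1C was too low to be tested.

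Genes that control the E2F and RB proteins after translation were also described. Of 6 such genes, 4 rose and 1 fell, at a median log2 fold change of 0.60, where 31.9% of all tested genes rose and 29.1% fell. SKP2, whose product marks E2F1 and p27 for degradation, was at 14.6 ± 1.37 CPM in shGlud1 and 2.58 ± 0.50 CPM in shNT (log2 fold change 2.51), and CCNF, whose product targets activator and atypical E2Fs, was at 21.2 ± 1.06 CPM in shGlud1 and 4.44 ± 1.38 CPM in shNT (2.26). Of the RB phosphatase genes PPP1CC (0.87) and PPP1CB (0.34) rose and PPP1CA fell (-0.35). The call on PPP1CA was lost without shNT replicate 1, without shNT replicate 2 and without shGlud1 replicate 2, and also with total counts, no filter on low counts and the median-length trend removed. FZR1, at 91.1 ± 4.41 CPM in shGlud1 and 91.1 ± 2.46 CPM in shNT, did not pass. Of 8 corepressor genes recruited by pocket proteins 6 rose and 0 fell, led by SIN3A (2.13), SMARCA2 (1.34) and KDM5A (1.20), while HDAC1 (0.18) and ARID4A (0.30) did not pass. At an unadjusted p under 0.05 in edgeR, and with DESeq2 and limma-voom, 0 were lower as well. The share called higher over all tested genes was 31.9%. With the length trend removed 5 corepressor genes rose, at a median log2 fold change of 0.45, against 0.78 before.

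The Polycomb complex that E2F6 joins was described from a list of 10 genes. Of these 4 fell, 1 rose and 5 did not pass, and the median log2 fold change was -0.36. Among all tested genes 29.1% were called lower and 31.9% higher, with a median of 0.06. RING1, a ubiquitin ligase, fell to 63.3 ± 6.47 CPM in shGlud1, against 135 ± 2.88 CPM in shNT (log2 fold change -1.10), and RYBP (-0.65), MAX (-0.45) and CBX3 (-0.35) also fell, while MGA, the scaffold, rose (1.25). Under total counts 1 rose and 1 fell, at a median of 0.15 against 0.57 for all genes. With the length trend removed 6 fell and the call on MGA was lost, and without shNT replicate 1 only 2 fell. Of 8 germline genes that E2F6 is known to silence in mice and human cells, 3 were tested, of which TUBA3C rose (0.98, uncertain because close tubulin copies may share its reads) and STAG3 (0.12) and TEX11 (-0.20) did not pass, and SMC1B, SLC25A31 and TDRD1 had 0 counts in all libraries.

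Target genes were mostly higher. Of 38 genes of the G1/S transition that E2F proteins are known to drive, 30 rose and 0 fell, with a median log2 fold change of 0.89. In the list of G2/M genes bound by DREAM and later by MYBL2 and FOXM1, 24 of 26 rose and 0 fell, with a median of 1.55. Across all tested genes 31.9% were called higher and 29.1% lower, with a median of 0.06. At an unadjusted p under 0.05 in edgeR 1 G1/S gene, CCNE2, and 0 G2/M genes were lower. With DESeq2 0 and 1 were called lower, and with limma-voom 0 and 0. By lowest p the G1/S genes were CLSPN, a replication checkpoint adaptor (10.1 ± 1.45 CPM in shGlud1 and 0.954 ± 0.31 CPM in shNT, log2 fold change 3.38), RRM2 of ribonucleotide reductase (1.43) and DNMT1, the maintenance DNA methyltransferase (1.43). In the G2/M list they were TPX2, a spindle factor (170 ± 14.4 CPM in shGlud1 and 35.2 ± 1.85 CPM in shNT, 2.27), the checkpoint kinase gene BUB1 (2.80) and the kinesin gene KIF20A (2.83). The G1/S genes that did not pass were CCNE1, CCNE2, CDT1 (0.21), MCM5 (0.28), PRIM1 (0.19), UNG (0.29), HELLS (0.29) and GMNN (0.40). In the G2/M list they were CENPE (-0.21) and BIRC5 (-0.27).

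**Figure D5:**
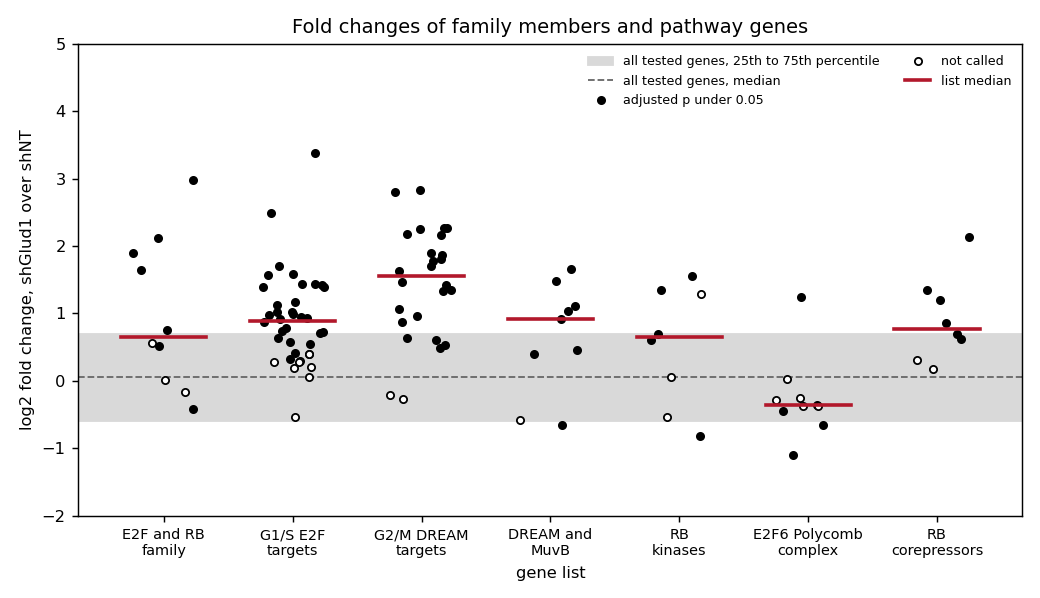
Log2 fold change, shGlud1 over shNT, of family members and of pathway genes by list, with filled points for called genes, open points for genes that did not pass, red bars for list medians, and a grey band from the 25th to the 75th percentile of all tested genes. The G2/M list lies highest, at a median of 1.55, and the median of the E2F6 Polycomb genes, -0.36, lies below that of all genes.

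The promoter motifs found in the family were also counted in the target lists. Of 32 G1/S genes with a RefSeq window 16 held at least 1 E2F-type motif (50%), against 2 of 21 in the G2/M list and 6.37% of the 9782 tested genes with a window. The mitotic motif TTTGAA, searched on both strands, was in 14 of the 21 G2/M genes and 2 of the 32 G1/S genes with a window. It was in 13.9% of the tested genes with a window, and E2F3 held 1 at -65. A gene was counted if any of its windows held the motif. Of tested genes other than the members with a window, 41.8% of the 619 with an E2F-type motif were called higher and 26.5% lower, against 35% and 28.2% of the 9155 without. Their medians were 0.28 with a motif and 0.12 without. With the length trend removed, 34.6% of those with a motif and 27.9% of those without were called higher. Of the 23 with at least 2 motifs 12 rose (52.2%) and 4 fell. Of the 596 with 1 motif 41.4% rose. On the scale without the length trend, 8 of the 23 were called higher and 4 lower. That share of 34.8% higher was close to the 34.6% for 1 motif. Under total counts 78.3% of the 23 and 60.6% of those with 1 motif were called higher. The 23 were MCM6 (1.13, with 4 motifs), CDC25A (0.91), CDC6 (0.74), POLA2 (0.73) and MCM2 (0.33) of the G1/S list and 18 others. Of the others, SLC30A3 (2.71) and DTL (1.98) were named after their values were seen. With TMM factors the 4 that fell were TPRA1 (-1.16), OARD1 (-0.56), MGST1 (-0.54) and ZNF444 (-0.39).

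By distance between mean-centred log2 CPM over the 4 libraries, the genes most like E2F2 among 9841 with a mean of at least 5 CPM were SLITRK5 (distance 0.144), IL36B (0.189) and NCAPD2 (0.256). Those most like E2F1 were LSS (0.0205), CPSF1 (0.0256) and SCRIB (0.0426). The distances rest on 4 libraries in 2 groups and say nothing of shared function.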

How the data were processed

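RNA abundance was measured in 4 libraries, 2 per group. The authors deposited expected counts, estimated reads per gene that need not be whole, not scaled to library size. Per the labels' protocols, 1 µg of total RNA was poly-A selected and made into libraries by the TruSeq V2 chemistry (no strand marking), using 12 PCR cycles and paired reads of 150 nt. Reads without molecular identifiers are not independent molecules, so limits from counts cover counting error only. Bowtie 0.12.2 and a mouse build (mm8) are named, per the submitters' processing notes, yet all 57820 rows carry human Ensembl IDs, so the build behind the counts is uncertain. Neither the counter nor its annotation is stated in the sources used here. Positions and lengths are GENCODE 29 (GRCh38), matched by ID to 52338 rows. Promoter sequences are from RefSeq (GRCh38.p14).

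Expected counts were rounded. In edgeR 4.0.16 (R 4.3.3), filterByExpr (minimum count 10) left 14616 genes, TMM factors were 1.15 and 1.25 for shGlud1 and 0.826 and 0.845 for shNT, and shGlud1 was tested against shNT by robust quasi-likelihood F tests with no blocking on replicate number. Benjamini-Hochberg adjustment ran over the 14616 genes, a gene was called at an adjusted p under 0.05, and each SE was derived from the fold change and its F statistic (absolute value over root F). The pipeline was tested on simulated data. Few genes were changed in them and no length trend was put in, so they do not bear on the scaling of these libraries. Alternatives were RLE and upper-quartile factors, total counts, DESeq2 1.42.0, limma-voom (limma 3.58.1), no filter on low counts, 1 CPM in 2 libraries, a replicate block, leaving out each library, and removal of a lowess trend (span 0.3) on longest transcript length. The same on median length was chosen after seeing the data. Members and lists were chosen with earlier results of these data known. Named genes were all members, GLUD1, genes of lists with at most 10 genes, up to 3 called each way by lowest p in longer lists, and the 3 nearest profiles of E2F1 and E2F2. Genes of the longer lists that did not pass or held at least 2 motifs, and the overlapping genes of members, were named beside this rule. The same holds for SLC30A3, DTL and the genes with at least 2 motifs that fell. Nearest profiles used log2(CPM + 0.5). Tables used pandas 2.3.3 and numpy 2.4.6, and figures matplotlib 3.10.9, under Python 3.11.15. A list of E2F1 target genes and some markers are not reported here.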

Additional observations from a re-analysis of the deposited data

How the results depend on the processing

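E2F2, E2F3, E2F8 and RBL1 kept their direction and their call under all 14 alternatives, with log2 fold changes of 2.54 to 3.49, 1.05 to 2.17, 1.62 to 2.62 and 1.45 to 2.42. Total counts moved the calls over all genes to 7592 higher and 2000 lower, against 4662 and 4257. Leaving out a library gave 3647 to 4451 higher and 3379 to 4314 lower. Members called higher numbered 4 to 8 over the alternatives (4 to 6 without a library). Members called lower numbered 1, and 0 with total counts, 2 with either length trend removed, and 0 to 2 without a library. E2F1, which was not called, reversed in sign with RLE factors (-0.048), DESeq2 (-0.048), the filter of 1 CPM (-0.0055) and the median-length trend removed (-0.36, called lower, adjusted p = 0.0138 in edgeR's test, over alternatives 3.29e-05 to 0.992), and ran from -0.12 to 0.11 without a library (-0.0049 without shNT replicate 1). E2F4 reversed under total counts (0.11), and E2F7 under total counts (0.35) and without shGlud1 replicate 1, with a range of -0.40 to 0.0080 when a library was left out. The activator minus repressor difference of 1.02 was 0.73 with the median-length trend removed and 0.98 to 1.08 without a library. In the G1/S list 26 to 37 genes were called higher, and 1 lower with RLE factors, the replicate block and the length trend removed, and 0 to 1 without a library. In the G2/M list 23 to 25 were called higher, and 1 lower with DESeq2 and the length trend removed, and 0 to 1 without a library. The causes of these changes were not tested. Of 224 counts of calls for the other 8 lists described, 202 stayed within 1.5 times. Same-numbered libraries of the 2 groups did not deviate together (r = 0.041 over genes), so numbers were not taken as pairs. With the replicate block 4745 genes were called higher and 4301 lower, and none of the 10 members' calls changed. Members under 100 counts in shNT, such as E2F8 with 7 and 9, have the least precise fold changes.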
